A study of Mus musculus with 12 samples.

Results

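The comparison described here set the spinal cord segment below a contusion against the segment above it in mice carrying 1 inactive allele of synj1. For each gene symbol, the value listed for the group labelled synj1+/- below the lesion was divided by the value listed for the group labelled synj1+/- above it. Of 13957 symbols listed at either site, 12023 had 1 value at each site and were joined, and 9650 of these had a mean of at least 10 over the 4 group values and entered counts and list summaries. All animals were male ApoE4 mice, in which human ApoE4 replaces the mouse gene, aged about 4 months at contusion of the cord at thoracic level 9, and segments of about 2 mm were taken at 14 days. The groups were synj1+/- above, synj1+/- below, synj1+/+ above and synj1+/+ below, with 3 libraries each, and synj1+/+ mice carried both intact alleles. ApoE3 and sham animals were not analysed here.

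The table gives 1 value per gene and group, which combines the 3 libraries, so no spread between libraries can be given, no test was possible, and every count below is a count past a stated fold. Values are on a scale read as fragments per transcript length and library size (FPKM) plus 1, and a ratio of such values understates the change of a gene listed close to 1. Reads were reduced to equal number and normalized within each site, so the ratio sets values across separately normalized sites, and the table itself holds no read numbers. Above and below segments may come from the same mice.

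Synaptojanin 1 is the phosphatase that removes phosphates from the membrane lipid phosphatidylinositol 4,5-bisphosphate during recycling of synaptic vesicles. A contusion damages ascending and descending axons at the same time, so that cord below the lesion loses input from the brain while cord above it loses input from the hindlimb segments, and axons degenerate in both directions with myelin debris, macrophages and scar-forming cells nearby. Neighbouring cord segments also differ before any injury, since Hox genes are kept at levels that depend on position along the axis.

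The labels were checked with SYNJ1, on chromosome 16 (90936092 to 91013727, GRCm38.p6). Its value was 2404 above and 2593 below in the group labelled synj1+/-, against 1905 and 1847 in the group labelled synj1+/+. SYNJ1 was thus listed higher in the groups labelled synj1+/- at both sites, which goes against those labels, although the mice were genotyped by PCR per the study's methods, and its own below over above difference was 0.11 on the log2 scale. APOE was 549 above and 564 below in the group labelled synj1+/-, and 767 and 477 in the group labelled synj1+/+. Whether reads of the human gene were counted under that symbol was not given in the sources used here.

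Markers of spinal cord cells were listed at like levels at both sites in the group labelled synj1+/-. The neuronal genes SNAP25 (6248 above, 6929 below) and STMN2 (197 and 198), the astrocyte water channel AQP4 (1917 and 1725), the oligodendrocyte gene MOG (249 and 231) and the microglial gene TMEM119 (50.1 and 48.5) were all present. The neuronal nuclear protein RBFOX3 and the microglial receptor P2RY12 were listed only above the lesion, at 1780 and 93.9. The myelin gene MBP, the sensory ganglion genes SCN10A and AVIL and the muscle gene CKM had no row at either site. The genes with the highest values were largely shared: FTH1, DNM1, GFAP and MOBP led above and DNM1, FTH1, MOBP and GFAP below. GFAP, the intermediate filament of astrocytes, was 10584 above and 8485 below, and DNM1, the dynamin that pinches off vesicles, was 11207 above and 13066 below.

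Most genes had nearly the same value on both sides of the lesion in the group labelled synj1+/-. The median log2 ratio over the 9650 genes was 0.02, and 95% of genes lay between -0.37 and 0.43. At or past 2-fold, 23 genes were higher below, 0.238% of those counted, and 8 were lower below, 0.0829%. At 1.5-fold the counts were 103 (1.07%) and 55 (0.57%). Calls came mainly from genes with low values: 0.607% of the 3293 genes with a mean of 10 to 30 were past 2-fold, 0.22% of the 3633 genes from 30 to 100, and 0.11% of the 2724 genes over that. With the listed 1 taken off and 10 added before the ratio, 8 genes were higher (SAA3, LCN2, IGF2, HOXC10, HOXD9, CHIL1, GM14308 and GM9780) and CALCA was the 1 that was lower.

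**Figure D1:**
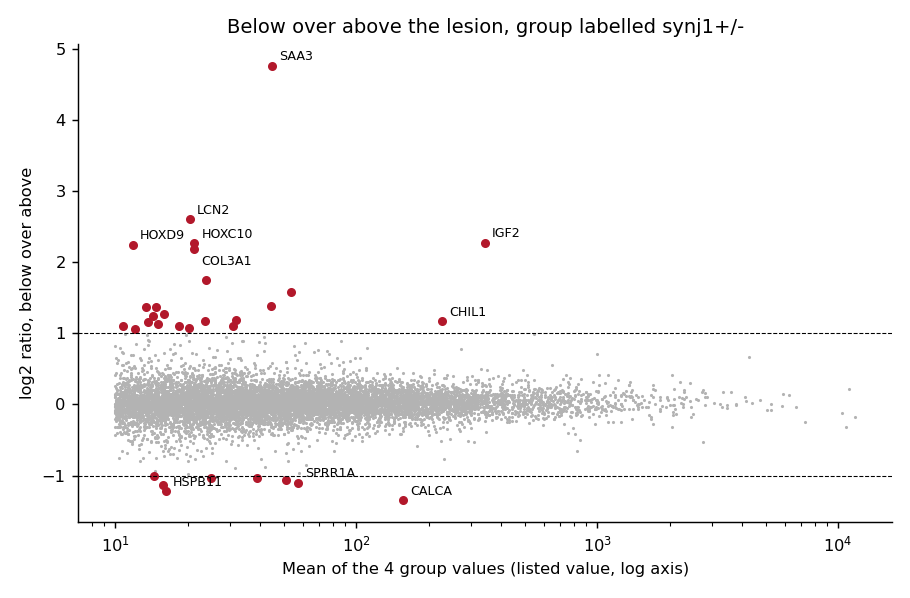
Each point is a gene in the group labelled synj1+/-, with the mean of its 4 group values on a log axis and its log2 ratio of below over above; red points are the 31 genes at or past 2-fold (dashed lines). SAA3 stood highest at 4.77 and CALCA lowest at -1.35, and the grey points narrow as the mean rises.

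Of the 23 genes higher below, 16 had both below values over both above values, which 20.2% of all genes did. For the other 7, which were CDK5RAP1, GM14308, GM14434, GM960, LOC102633156, RPS21 and SLC9A7, a synj1+/+ above value reached or passed a below value. In 14 of the 23 the value farthest from its neighbour among the 4 was the low one of synj1+/- above. Of the 8 genes lower below, 4 had both below values under both above values, which 16.8% of all genes did. The 23 and the 8 genes were picked by the synj1+/- ratio itself, which favours such an order. The shares of all genes carry no such pick, so these counts are a description and lend the calls no support. Just inside the fold lay CD5L (2.09-fold higher below) and BC028528 (2.01-fold higher above), and just outside it lay XLR3B (1.99-fold) and LYZ2 (1.98-fold) higher below and CRIP3 (1.98-fold) higher above.

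**Figure D2:**
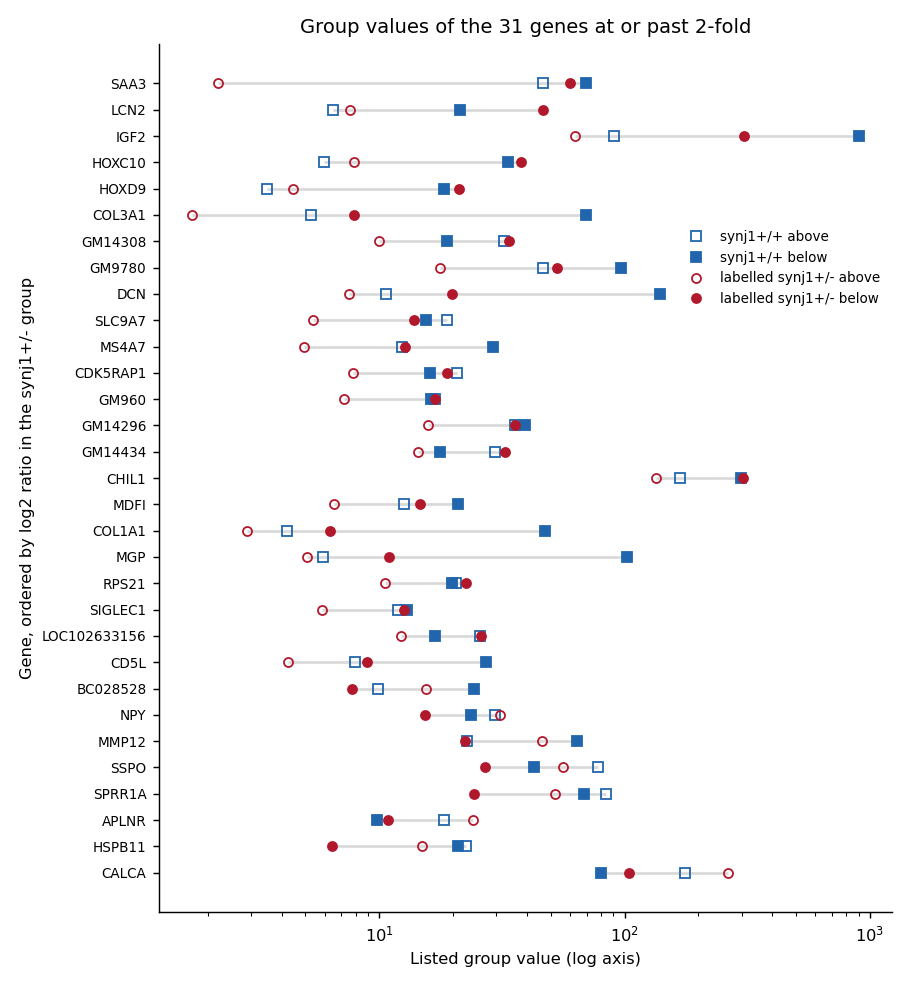
The 4 group values of each of the 31 genes at or past 2-fold, on a log axis, with open symbols above the lesion, filled symbols below it, circles for the groups labelled synj1+/- and squares for those labelled synj1+/+. The open circle of SAA3 sits alone at 2.19, while the filled squares of IGF2, DCN, MGP and COL3A1 lie far to the right of the other 3 symbols.

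The Hox genes divided by their position in the clusters. Hox genes code for homeodomain factors, and the groups with higher numbers mark more caudal segments. HOXC10, on chromosome 15 (102966796 to 102971898), was 7.86 above and 38.0 below in the group labelled synj1+/- and 5.95 and 33.5 in that labelled synj1+/+. HOXD9, on chromosome 2 (74697763 to 74700208), was 4.44 above and 21.2 below, and 3.49 and 18.3 in synj1+/+. Both were therefore low on the rostral side and high on the caudal side whatever the genotype, and the ratio in the group labelled synj1+/- was 4.84-fold for HOXC10 and 4.76-fold for HOXD9. HOXA9 was 50.6 above and 92.0 below, a 1.82-fold difference, and HOXA9 in the group labelled synj1+/+ was 36.6 and 66.0.

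Other members of group 9 did not follow. HOXB9 was 42.2 above and 44.5 below, and HOXC9 was 15 and 13.4. HOXD10 was listed only below, at 9.32, and HOXA10 only above, at 5.51. Of the 16 genes in the list of groups 9 to 13, 5 were listed at both sites, all passed the mean of 10, and their median log2 ratio was 0.86 under the label synj1+/- and 0.85 under synj1+/+. HOXD9 and HOXC10 passed that mean only through their below values, so the count of members past a fold is a description.

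Hox genes of groups 1 to 8 went weakly the other way. Over all genes, 56.2% had a ratio over 1 in the group labelled synj1+/- and 49.6% in that labelled synj1+/+. Of 21 genes of groups 1 to 8 listed at both sites, 14 were lower below in the group labelled synj1+/-, and also 14 in the group labelled synj1+/+. The 14 that passed the mean had a median log2 ratio of -0.12, beside 0.02 over all genes, with 12 under the median of all genes, where 50% of genes lie by definition. HOXC8 was the lowest, 115 above and 84.0 below. HOXB8, with the highest value of the Hox genes, was 825 above and 774 below. The other 7 of the 21 were higher below, among them HOXD8 (88.0 above, 111 below), HOXC4 (57.8 and 61.8) and HOXA5 (27 and 27.3).

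**Figure D3:**
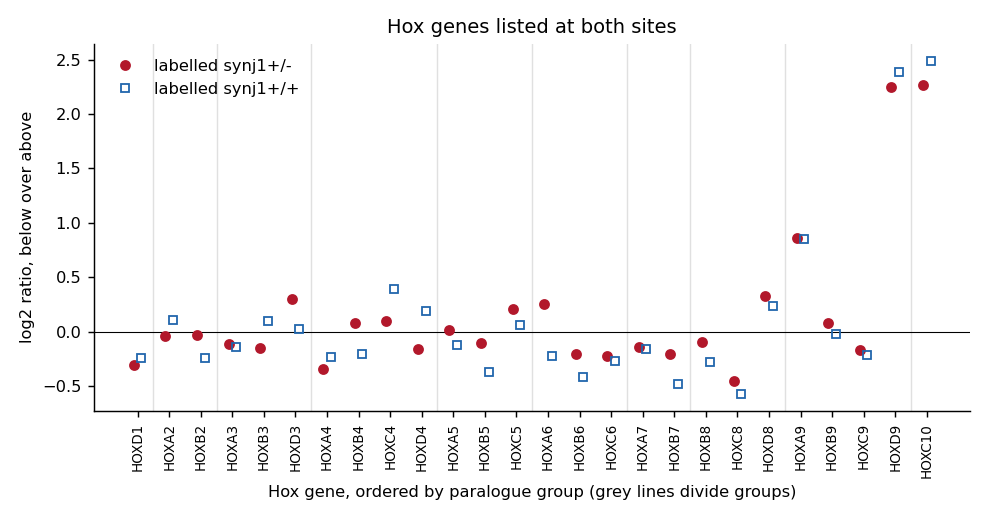
The log2 ratio of below over above for 26 Hox genes in order of paralogue group, with red circles for the groups labelled synj1+/- and blue squares for those labelled synj1+/+. HOXD9 and HOXC10 lie above 2 in both genotypes, HOXA9 near 0.86, and groups 1 to 8 between -0.45 and 0.33 in the group labelled synj1+/-.

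The largest ratio of all belonged to SAA3, a serum amyloid A protein made by macrophages and other cells in the acute-phase response, on chromosome 7 (46711998 to 46719615). SAA3 was 2.19 above and 60.0 below in the group labelled synj1+/-, a 27.4-fold ratio, and 46.3 and 69.8 in the group labelled synj1+/+. It was thus the above value in the group labelled synj1+/- that stood apart, and the other 3 values lay within a narrow band. LCN2, the secreted lipocalin that binds bacterial iron carriers and is made by reactive astrocytes and neutrophils, lies on chromosome 2 (32384637 to 32387739). LCN2 was 7.59 above and 46.4 below, a 6.11-fold ratio, and 6.49 and 21.3 in synj1+/+. For LCN2 both above values were low, and the below value was highest in the group labelled synj1+/-.

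The promoters of LCN2 and SAA3, the 2 genes with the largest ratios, are shown because both code for secreted acute-phase proteins. They are RefSeq sequence (GRCm38.p6), 250 bases before the start on the minus strand, at chr2:32387740-32387989 for LCN2 and chr7:46715677-46715926 for SAA3, written 5′ to 3′. The SAA3 window precedes a start that lies inside the annotated span of the gene given above, and the LCN2 window abuts its gene. Capitals mark matches on either strand to TTGCNNAA, a C/EBP motif.
LCN2: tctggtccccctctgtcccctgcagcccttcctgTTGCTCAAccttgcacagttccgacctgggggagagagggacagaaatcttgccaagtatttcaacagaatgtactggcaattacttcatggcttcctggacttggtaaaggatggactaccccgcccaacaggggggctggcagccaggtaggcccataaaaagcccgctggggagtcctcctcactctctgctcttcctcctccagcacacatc
SAA3: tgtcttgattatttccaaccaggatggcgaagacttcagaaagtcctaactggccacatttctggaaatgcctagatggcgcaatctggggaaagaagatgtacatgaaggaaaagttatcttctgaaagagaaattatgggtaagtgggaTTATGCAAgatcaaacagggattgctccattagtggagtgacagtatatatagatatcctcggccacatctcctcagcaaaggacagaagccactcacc
Each held 1 match, 216 bases before the start in LCN2 and 99 in SAA3. A match occurred in 9.56% of 32851 promoter windows of the same length. The TATA box letters TATAAA, in 12.4% of windows, and the kappa B motif, in 7.25%, had no match on either strand in these windows. A match is a description of letters and not a measured binding site.

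CHIL1, a chitinase-like protein of astrocytes and macrophages, was 135 above and 305 below in the group labelled synj1+/-, a 2.25-fold ratio, and 169 and 299 in synj1+/+. Reactive astrocyte genes as a list were divided. Of 23 members that passed the mean, 11 were over and 12 under the median of all genes. LCN2 was the highest, followed by CP, the copper-carrying ferroxidase ceruloplasmin (30.6 above, 54.5 below). At the lower end stood the matrix glycoprotein TNC (18.9 above, 12.1 below), the hyaluronan receptor CD44 (193 above, 129 below) and GFAP.

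Genes of connective tissue and the meninges made up a second set. Fibroblasts of the meninges secrete collagens and growth factors and enter the scar after injury. IGF2, a growth factor, was 63.1 above and 306 below in the group labelled synj1+/-, a 4.85-fold ratio, and 90.4 and 905 in synj1+/+. COL3A1, a fibrillar collagen chain, was 1.73 above and 7.91 below, a 4.58-fold ratio, and 5.25 and 69.9 in synj1+/+. Both below values exceeded both above values for these genes, and the synj1+/+ below value was by far the highest of the 4. The same order held for DCN, a proteoglycan that binds collagen (7.54 above, 19.8 below, and 10.6 and 139 in synj1+/+). It held for COL1A1 (2.88 and 6.29, and 4.20 and 47.2) and for MGP, an inhibitor of calcification (5.09 and 11.0, and 5.92 and 102). Of the transcript windows of 100 bases of IGF2, 59.3% also occur in transcripts of another annotated gene, GM49394, so its value depends on how such reads were assigned.

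The fibroblast and collagen list had 35 genes, of which 26 were listed at both sites and 20 passed the mean. Its median log2 ratio was 0.19 under the label synj1+/- and 1.62 under synj1+/+, and 14 members were over the median of all genes. Of these 20, 7 were 1.5-fold or more higher below and none was that much lower, beside 1.07% and 0.57% of all genes. POSTN was 8.28 above and 15.1 below, PCOLCE was 5.91 and 11.0, and COL1A2 was 7.26 and 11.6. PRELP was lowest, at 96.6 above and 71.6 below. Several members passed the mean only through the high synj1+/+ below value, so these counts describe the list without testing it. A further 8 of the 35 members were listed only below the lesion and 1 only above, beside 312 and 1619 of all 13957 symbols. Values of those 8 in the group labelled synj1+/- ran from 1.92 for COL14A1 to 4.33 for LOX.

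Of 30 meningeal fibroblast genes, 12 were listed at both sites and 7 passed the mean, with a median log2 ratio of 0.71 beside 0.81 in synj1+/+. Over all 12 the median was 0.30, beside 0.97 in synj1+/+, so the nearness of the genotypes depended on the filter. Of the 7, MGP passed the mean only through its synj1+/+ below value of 102. PTGDS, the prostaglandin D synthase of the leptomeninges, was 644 above and 1052 below. ISLR was 8.17 above and 15.2 below, and the retinoic acid enzyme ALDH1A1 went the other way at 332 and 286. Another 11 of the 30 members were listed only below, from 1.23 for TWIST1 to 6.98 for CEMIP in the group labelled synj1+/-. A further 2 were listed only above, beside 312 only below and 1619 only above of all 13957 symbols. In bulk tissue, fewer cells of a type and less RNA per cell cannot be told apart, here or in any list that follows.

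Macrophage genes did not go 1 way in the group labelled synj1+/-. MS4A7, a membrane protein of border and infiltrating macrophages, was 4.92 above and 12.7 below in the group labelled synj1+/-, a 2.58-fold ratio, and 12.4 and 29.0 in synj1+/+. SIGLEC1, the sialic acid receptor of tissue macrophages, was 5.85 and 12.6, and 11.9 and 13 in synj1+/+. CD5L, a protein secreted by macrophages, was 4.24 and 8.88, and 7.96 and 27.2 in synj1+/+. In all 3 genes the above value of the group labelled synj1+/- was the lowest of the 4. Just under 2-fold were ADGRE1, the F4/80 antigen (16.1 above, 31.1 below), and LYZ2, lysozyme (235 and 465).

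MMP12, the macrophage elastase, went the opposite way, at 46.0 above and 22.3 below in the group labelled synj1+/- and 22.7 and 64.0 in that labelled synj1+/+. CD36, a scavenger receptor for oxidized lipid, was 66.3 above and 36.7 below, and 48.0 and 96.4 in synj1+/+. For both genes the genotypes had opposite directions. Over the 12 macrophage genes that passed the mean, 7 were over and 5 under the median of all genes in the group labelled synj1+/-. Their median log2 ratio was 0.19. Of these, 4 were 1.5-fold or more higher and 2 lower below, beside 1.07% and 0.57% of all genes. In the group labelled synj1+/+ all 12 were over its median of all genes, with a median log2 ratio of 0.57. MS4A7, the highest member, passed the mean only through its below values, so these counts describe the list without testing it.

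Microglial genes were mostly somewhat higher below. Of 25 disease-associated microglia genes, 16 were over the median of all genes, and the list's median log2 ratio was 0.21, although its summed value, in which FTH1 weighs most, was 16838 above and 16242 below. GPNMB was 49.1 above and 70.8 below, SPP1 was 871 and 1110, and CST7 was 22.3 and 29.7, while LGALS3 was 119 and 98.3. Of 14 homeostatic microglial genes, 10 were over it, with a median of 0.04 and summed values of 3714 and 4054, and CX3CR1 was 99.1 and 100. The difference between these lists was not tested. The complement genes C1QA (323 and 450), C1QB (213 and 300) and C1QC (411 and 601) were higher below, whereas C4B (1196 and 1004) and C3 (63.5 and 55.1) were lower. Antigen presentation genes show peptides to T cells and were also higher below. Of 10 that passed the mean, 9 were over the median of all genes and the median log2 ratio was 0.36. The invariant chain CD74 was highest at 30.6 above and 55.6 below, and the regulator NLRC5 lowest at 19.5 and 13.6.

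Lysosomal and interferon genes had smaller differences of the same sign. Of 30 lysosomal genes, 22 were over the median of all genes (median log2 ratio 0.13), led by the hexosaminidase subunit HEXA (86.1 above, 117 below). Of 18 interferon-stimulated genes, 14 were over it (median 0.14). Beside 1.07% of all genes, 2 were past 1.5-fold higher, IRF7 (28.8 and 55.7) and IFITM1 (12.2 and 22.5). IRF7 was 44.7 and 36.0 in the group labelled synj1+/+, so that its direction there was the opposite.

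The gene lowest below was CALCA, on chromosome 7 (114625981 to 114636910), which codes for calcitonin and for the pain-related peptide CGRP of sensory and motor neurons. CALCA was 265 above and 104 below in the group labelled synj1+/-, a 2.55-fold difference, and 176 and 80.4 in synj1+/+. Both above values exceeded both below values, and CALCA was the 1 gene past 2-fold lower below in both genotypes. NPY, neuropeptide Y, was 31.1 above and 15.3 below, and 29.5 and 23.6 in synj1+/+. VIP (16 and 9.47) and neurotensin, NTS (30.5 and 18.5), were also over 1.5-fold higher above.

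Neuropeptides as a list were lower below. Of 29, 25 were listed at both sites and 17 passed the mean. Their median log2 ratio was -0.37 under the label synj1+/- and -0.43 under synj1+/+. In the group labelled synj1+/-, 14 of 17 were under the median of all genes. There 4 were past 1.5-fold lower, beside 0.57% of all genes. Somatostatin, SST, was 337 above and 284 below, and the enkephalin precursor PENK was 317 and 308. Gastrin-releasing peptide, GRP, was the highest member at 23.9 and 28.2. The sensory ganglion genes SCN10A and AVIL had no row, and of 6 ganglion list members that passed the mean, 5 were under the median of all genes, with a median of -0.16.

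The regeneration-associated list overlaps with the neuropeptides in NPY, VIP and ADCYAP1. SPRR1A, a cornified envelope protein that injured neurons make, was 52.1 above and 24.3 below in the group labelled synj1+/-, a 2.15-fold difference, and 83.9 and 68.5 in synj1+/+. GAP43, a growth cone protein, was 176 and 132. Of 16 members, 14 were under the median of all genes, and the list's median log2 ratio was -0.23. STMN2 was 197 and 198 and STAT3 was 104 and 110, so these members were nearly level.

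The ependymal and motile cilia list was divided, with 3 of the 5 genes that passed the mean under the median of all genes and 2 over it. CCDC153 was lowest at 19.6 above and 12.5 below, CFAP126 was highest at 32.3 and 40.8, and the ependymal transcription factor FOXJ1 was 42.0 and 45.9. Outside that list, SSPO codes for SCO-spondin, the matrix protein of the fibre in the central canal, and was 56.3 above and 27.0 below, a 2.08-fold difference, and 78.2 and 42.8 in synj1+/+. HSPB11, a subunit of the intraflagellar transport complex, was 14.9 and 6.39, and 22.6 and 20.9 in synj1+/+. ZMYND10, which assembles the dynein arms of motile cilia, was 20.7 and 10.9, but 13.4 and 13.6 in synj1+/+. APLNR, the apelin receptor, was 24.0 above and 10.9 below, and 18.3 and 9.81 in synj1+/+, so both below values were lower. Other genes near the low end were MOB3B (72.3 above, 37.3 below, and 80 and 41.5 in synj1+/+) and the muscle-type filamin FLNC (33.9 and 19.4, and 40.1 and 21.7). MAPK15 was 63.1 and 34.2 but nearly level in synj1+/+ at 36.8 and 33.4, and the transcription factor EGR2 was 33.3 and 17.8 but higher below in synj1+/+ at 31.9 and 42.4. SEMA3B, a secreted axon guidance cue, was 309 and 182, and its synj1+/+ values were 275 and 158.

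Vascular genes were listed slightly higher below. All 18 endothelial genes that passed the mean were over the median of all genes, and 16 of 18 were so in the group labelled synj1+/+. The median log2 ratio in the group labelled synj1+/- was 0.24. Beside 1.07% of all genes, 2 members were past 1.5-fold higher. These were the transcription factor ERG, 42.7 above and 71.2 below, and von Willebrand factor, VWF, 23.4 and 37.1. The tight junction gene CLDN5 was 52.8 and 65.2, and the lowest ratio was that of TJP1, 282 and 289. Pericyte and smooth muscle genes had a median of 0.04 over 9 members.

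Haemoglobin transcripts differed in direction between the genotypes. HBA-A1 was 469 above and 330 below in the group labelled synj1+/-, and 104 and 256 in the group labelled synj1+/+. HBB-BS was 153 and 108, and 32.2 and 90.2 in synj1+/+. All 7 erythroid genes that passed the mean were under the median of all genes in the group labelled synj1+/-, with a median log2 ratio of -0.37, beside 1.29 in the group labelled synj1+/+. HBA-A1 and HBA-A2 are near-identical, so their separate values are uncertain. The part of blood in the other results was not tested.

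Myelin and sterol genes were lower below by small amounts. Of 18 oligodendrocyte genes, 15 were under the median of all genes, with a median log2 ratio of -0.18. The iron carrier TRF was 1067 above and 876 below. MOBP was 10552 and 9724, and MOG was 249 and 231. Of 19 genes of cholesterol synthesis, which supplies the sterol of myelin, 16 were under it, with a median of -0.17. STARD4 (16.1 and 13), SC5D (73.9 and 59.7) and MSMO1 (52.5 and 42.3) were lowest. No member of either list reached 1.5-fold, which is close to the 1.07% higher and 0.57% lower over all genes.

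Genes of respiration were higher below by a small and even amount. Of 32 genes of oxidative phosphorylation, 30 were over the median of all genes, and the median log2 ratio was 0.15. Their range was narrow, from -0.01 for SDHA to 0.35 for NDUFB5, a complex I subunit (59.6 above, 76.1 below). None of the 32 reached 1.5-fold in either direction, which is close to the 1.07% higher and 0.57% lower over all genes.

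Neurofilaments and some axonal channels were higher below in the group labelled synj1+/-. Neurofilaments fill large axons, and NEFH was 300 above and 417 below, NEFM 977 and 1308, and NEFL 656 and 871. Of 10 motor neuron and neurofilament genes, 7 were over the median of all genes (median log2 ratio 0.24), whereas the choline transporter SLC5A7 was 77.7 and 68.8. The axonal potassium channels KCNA1 (25.5 and 36.0) and KCNA2 (343 and 452) were also higher below, while KCNT2 was 40.4 and 28.6, and the potassium channel list had a median of 0.03. Of 17 sodium, calcium and HCN channel genes, 11 were under the median of all genes, with a median log2 ratio of -0.13.

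Genes of transmitter release and inhibition differed among themselves. The fast calcium sensor SYT2 was 405 above and 540 below, VAMP1 was 940 and 1255, and CPLX1 was 507 and 647, whereas SYT1 was 530 and 481 and VAMP2 was 214 and 195. The glycine transporter SLC6A5 was 327 and 420 and the glycine receptor subunit GLRA1 was 32.5 and 41.6, whereas the GABA-making enzymes GAD1 (360 and 316) and GAD2 (31.9 and 28.6) were lower below. The medians were 0.09 over 28 synaptic vesicle genes and 0.11 over 22 GABA and glycine genes, beside -0.19 and -0.14 in the group labelled synj1+/+. Glutamate receptors and transporters had a median of -0.07, with 16 of 21 under the median of all genes, and GRIK1 was 55.5 above and 41.5 below. Perineuronal net genes had a median of 0.35 over 8 members, led by HAPLN4 (52.4 and 73.6). The list of phosphoinositide enzymes and synaptojanins had a median of 0.00 over 30 members.

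**Figure D4:**
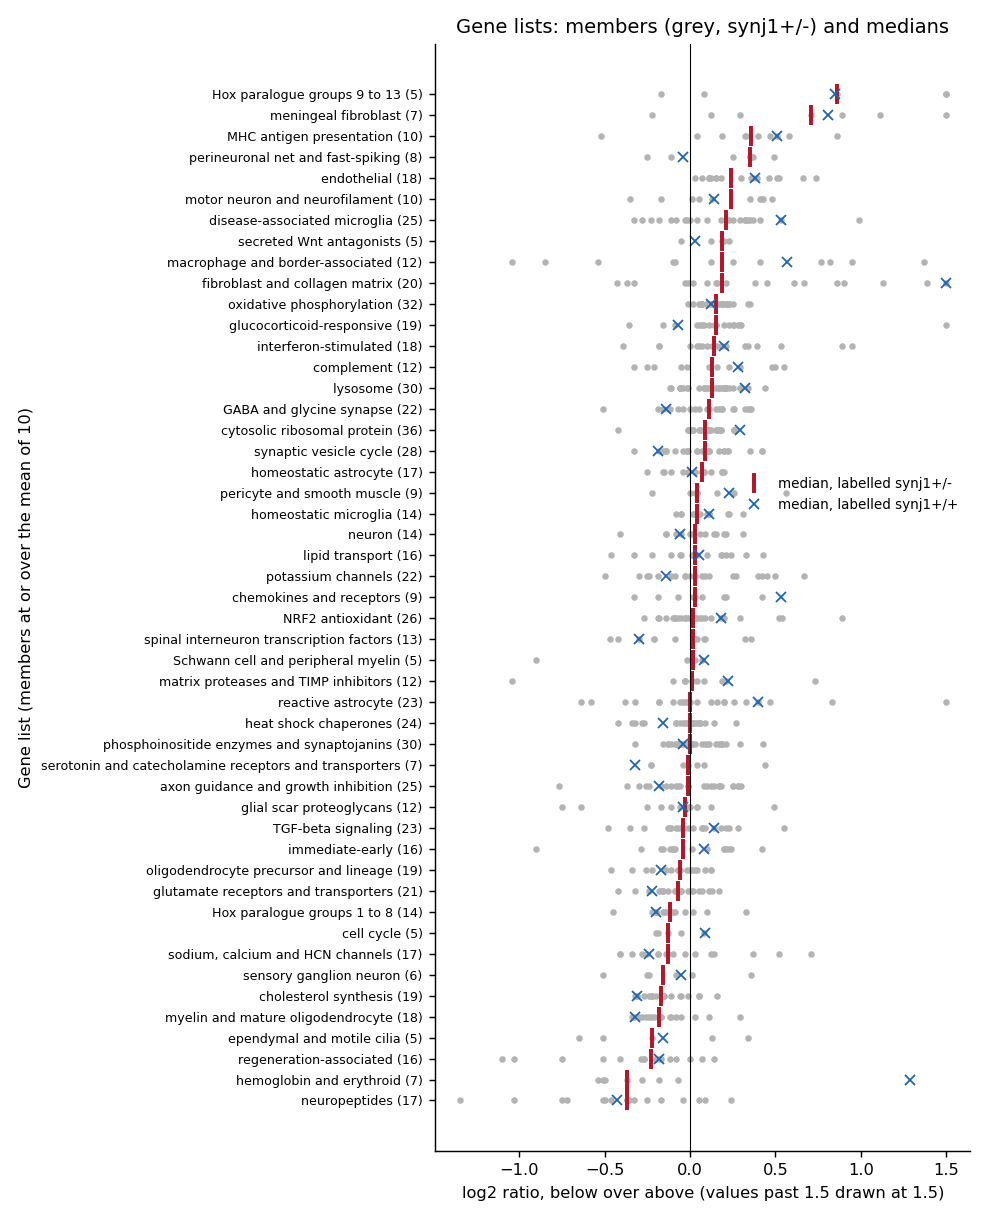
Members (grey, group labelled synj1+/-) and medians (red bar, synj1+/-; blue cross, synj1+/+) of the log2 ratio for 49 lists with at least 5 members over the mean of 10, whose number stands in brackets; values past 1.5 are drawn at 1.5. The median was at least 0.1 over that of all genes in 15 lists and at least 0.1 under it in 10, and the erythroid and fibroblast lists have the widest gaps between bar and cross.

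Predicted genes on distal chromosome 2 were higher below in the group labelled synj1+/-. GM14308 (176619933 to 176636423) was 10.0 above and 33.8 below, a 3.37-fold ratio, and 32.3 and 18.8 in synj1+/+. GM14434 (176470369 to 176486853) was 14.4 and 32.4, and 29.6 and 17.7 in synj1+/+. For GM14308 and GM14434 the direction was therefore opposite in the genotypes. GM14296 (176892509 to 176927813) was 15.8 and 35.9, and 35.9 and 39.1 in synj1+/+. These predicted genes share long stretches of transcript with each other and with neighbours. Of their windows of 100 bases, the read length, 96.6% for GM14308, 99.7% for GM14434 and 51.7% for GM14296 also occur in transcripts of other genes, so the values of single genes are uncertain. GM9780, on chromosome 14, shares 99.4% of its windows with PLAC9A and PLAC9B, and was 17.6 above and 52.9 below.

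For some further genes the synj1+/- above value was the lowest of the 4. CDK5RAP1, a mitochondrial tRNA-modifying enzyme, was 7.78 above and 18.9 below, and 20.8 and 16.1 in synj1+/+. SLC9A7, a sodium-proton exchanger of the Golgi, was 5.39 and 13.9, and 18.8 and 15.5 in synj1+/+. RPS21, a ribosomal protein, was 10.5 and 22.5, and 20.5 and 19.8 in synj1+/+. In these 3 genes the below values of both genotypes lay close to the synj1+/+ above value, and so they did for GM960 (7.15 and 16.9, and 16.8 and 16.2 in synj1+/+). MDFI, an inhibitor of myogenic factors, was 6.54 and 14.6, and 12.6 and 20.9 in synj1+/+. LOC102633156 was 12.3 above and 26.1 below, and went the opposite way in synj1+/+ at 25.8 and 16.8. The ribosomal protein list as a whole had a median of 0.09 over 36 members.

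The same ratio was formed for the group labelled synj1+/+, from the same table and the same 9650 genes. There 81 genes were 2-fold or more higher below (0.839%) and 11 lower (0.114%). Of the 23 genes higher below in the group labelled synj1+/-, 11 were also past 2-fold there, which is 47.8% of the 23 and 13.6% of the 81. They were LCN2, IGF2, HOXC10, HOXD9, COL3A1, DCN, GM9780, MS4A7, COL1A1, MGP and CD5L. Among them, COL3A1, COL1A1, MGP and CD5L passed the required mean only through the synj1+/+ below value (69.9, 47.2, 102 and 27.2). HOXD9, HOXC10, LCN2, DCN and MS4A7 passed it only through their below values, as their above values alone average under 10. For such genes the filter itself favours a higher value below in synj1+/+, so the overlap is a description and no measure of agreement. Of the 8 genes lower below, 1 was shared, CALCA, which is 12.5% of the 8 and 9.09% of the 11. The 4 collagen and matrix genes DCN, COL1A1, MGP and COL3A1 had log2 ratios of 1.39, 1.13, 1.11 and 2.19 in the group labelled synj1+/-, against 3.71, 3.49, 4.10 and 3.73 in the group labelled synj1+/+. HOXD9 and HOXC10 had nearly the same ratios in both, 2.25 and 2.27 against 2.39 and 2.49. The median absolute difference between the genotypes' log2 ratios was 0.147 over all genes, and none of these differences was tested.

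**Figure D5:**
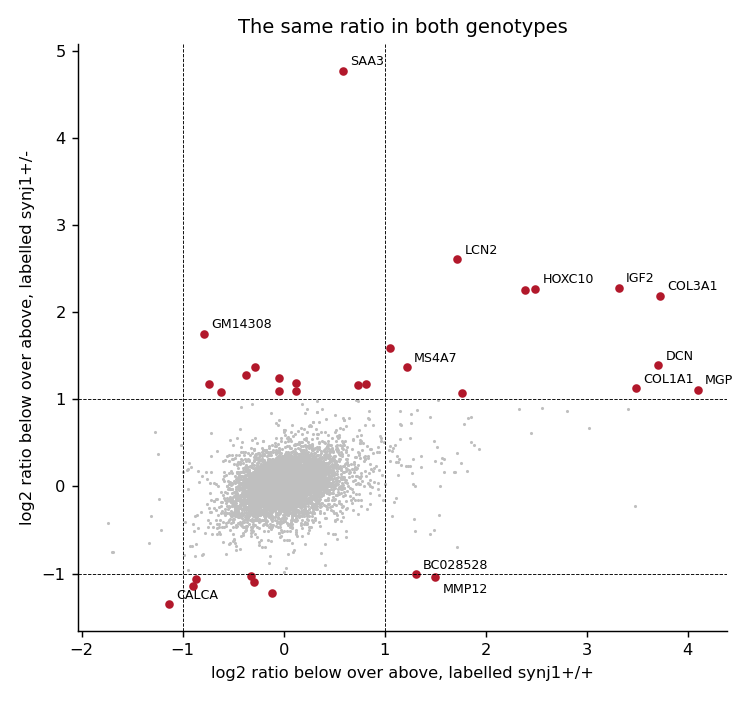
The log2 ratio of below over above in the group labelled synj1+/+ (horizontal) and in the group labelled synj1+/- (vertical) for 9650 genes, with the 31 genes at or past 2-fold in the latter in red and dashed lines at 2-fold. HOXC10 lies close to equal values, DCN, COL1A1 and MGP lie to the right, SAA3 lies high at 0.59 on the horizontal axis, and MMP12 and BC028528 lie at the lower right.

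Genes listed at only 1 site could not enter the ratio. There were 1619 listed only above, 1377 of them with a mean of at least 10 over the 2 groups of that site, and 312 listed only below, 63 of them with such a mean. Many of the genes listed only above had high values, such as ANK2 (9377 in the group labelled synj1+/-) and EPB41L3 (7921), so a missing row is not a low value. Among the genes listed only below, RTN3 was at 3170 in the group labelled synj1+/-.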

How the data were processed

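RNA from 12 libraries (4 groups of 3, by the genotype and site in the labels) was sequenced by the authors on an Illumina instrument as paired-end reads. Per the study's methods, reads were randomly reduced to the smallest library within each site and normalized by upper quartile. The submitters' processing notes name STAR 2.5.4b, Cuffdiff 1.3.0 and GRCm38.p6, and the annotation was not given in the sources used here. The deposited table holds 1 value per gene, site and genotype, together with the authors' fold changes, log2 fold changes, p-values and q-values between genotypes, which were not used. A shorter table of selected genes was not used either. The file does not name the unit of the values. The lowest value is exactly 1, so the deposited values were read as FPKM plus 1, and read numbers cannot be recovered from them. The study's methods state the read number to which the libraries of each site were reduced.

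Values were joined by symbol, leaving out 3 symbols listed more than 1 time at a site, and the log2 ratio of below over above was computed with no added pseudocount. A mean of at least 10 over the 4 group values was required for counts and for 52 gene lists. Genes named are SYNJ1 and APOE, the 15 highest and 15 lowest ratios, up to 10 each way past 2-fold in both genotypes, up to 8 members past 2-fold and the extremes of each list, and the 10 highest values per group. Some genes that the rule selects are not reported here. Other named list members and the genes listed at 1 site were chosen after their values were seen. The comparison, the rule and the lists were chosen with earlier results of these data known. Gene positions and promoters are from RefSeq GRCm38.p6, and transcript windows from GENCODE M21. Alternatives covered scaling, pseudocount, filter and fold. Python 3.11.15, numpy 2.4.6, pandas 2.3.3 and matplotlib 3.10.9 were used, and the calculation was tested on simulated data.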

Additional observations from a re-analysis of the deposited data

Results flagged for a closer look

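Genes of the group labelled synj1+/- whose ratio was past 2-fold in the opposite direction in the group labelled synj1+/+ were MMP12 and BC028528, and the difference between the genotypes was not tested. The log2 ratio of MMP12, a macrophage elastase, was -1.04 in the former group and 1.5 in the latter. That of BC028528 was -1.01 (15.5 above, 7.72 below) and 1.31 (9.86 above, 24.4 below). For both genes the synj1+/+ below value was the highest of the 4.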

How the results depend on the processing

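Each count was recomputed with 1 choice changed. Under the alternatives run, no list with a median 0.1 or more from that of all genes reversed its direction. For genes past 2-fold no reversal was possible, since fold and filter leave a ratio unchanged and the pseudocount keeps its direction. The scalings moved the median log2 ratio with the label synj1+/- only from 0.023 to 0.000, -0.005 or -0.009. Against 23 genes higher and 8 lower below with the label synj1+/-, 81 and 11 with the label synj1+/+, and 12 past 2-fold the same way in both, the counts in that order were 8, 1, 48, 2 and 4 with the listed 1 taken off and 10 added. They were 2, 1, 8, 1 and 2 at a mean of at least 100, 103, 55, 248, 97 and 61 at 1.5-fold, and 8, 0, 30, 3 and 5 at 3-fold. Without a filter on low values, these were 38 and 14 with the label synj1+/-, and 22 were lower with the label synj1+/+. The number of lists over the median of all genes, 26 of 49, was 14 at a mean of at least 100, where fewer lists keep 5 members. The 3 other scalings (median gene, equal sums, equal upper quartiles) kept all 31 genes past 2-fold. Results without each replicate were not run, since each value combines 3 libraries. No paired analysis was possible because the table holds 1 value per group and the labels give the groups no shared replicate numbers. The lack of read numbers in the table, the low values of most genes past 2-fold and the separate normalization of the sites limit these ratios.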
